A study of Homo sapiens with 9 samples.

Results

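The genes described here encode the proteins of the cytosolic ribosome, measured in SKBR3 cells, an established breast cancer line of human origin with extra copies of ERBB2. Members were chosen by symbol: RPL or RPS followed by a number, together with RPSA, RPLP0, RPLP1 and RPLP2. Ribosomal S6 kinases (10 symbols beginning RPS6K), 2 RPS4Y genes and 26 symbols ending in P and a number were left out. This gave 84 of the 20812 genes in the table. Of these, 75 are single ribosomal protein genes, 45 of the large (60S) subunit and 30 of the small (40S) subunit. The other members are 8 paralogs, whose symbols extend that of a single gene with an L, and 1 antisense RNA, RPL34-AS1. Cells were transfected at 10 nM with a first siRNA against PVRL4 (siRNA 1), a second one (siRNA 2) or a non-targeting control siRNA and were treated for 48 h. Each group had 3 libraries. All groups received the lipid reagent Lipofectamine RNAiMAX. Integrated DNA Technologies supplied both PVRL4 siRNAs and Horizon Discovery the control (ON-TARGETplus), so supplier and target cannot be told apart in a comparison with control. PVRL4 encodes nectin-4, a cell adhesion molecule.

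Ribosomal proteins fold around ribosomal RNA to form the small subunit, which decodes mRNA, and the large subunit, which joins amino acids into protein. Their mRNAs are among the most abundant of growing cells and mostly begin with a C followed by a run of pyrimidines, the 5′ terminal oligopyrimidine (TOP) motif, through which mTORC1 and the RNA-binding protein LARP1 control their translation and stability. Ribosomal proteins that are not built into a ribosome can signal in their own right: RPL5 and RPL11 bind MDM2, the ubiquitin ligase of p53.

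RefSeq windows around the listed transcript start (GRCh38.p14) were found for 67 of the 84 members. A TOP run was searched on the gene's strand as a C at the listed start followed by at least 4 pyrimidines. A gene was counted if any of its listed starts held the run. It was present in 46 of the 67 members (68.7%), against 1404 of all 27305 genes with an entry (5.14%). Of the 8141 tested genes with an entry, 594 had it (7.30%). Counted per promoter, 1429 of all 35116 listed promoters had it (4.07%). Among members with a run, the C was followed by 5 to 18 pyrimidines, with a median of 7. Single ribosomal protein genes had it in 45 of 61 entries (73.8%) and paralogs in 1 of 6, RPL22L1. The sequences below run 5′ to 3′ on the gene's strand from 30 bases before the listed start through the first 20 bases of the transcript, and capitals mark the C at the start with its pyrimidines. The first 9 are members that differed between replicate sets (described further on), shown so that a reader can see which of them hold the motif. Not all such members are shown: RPL6 and RPS29, also called higher in set 3, had no run at any listed start.
RPS3A (chr4:151099598-151099647, plus strand): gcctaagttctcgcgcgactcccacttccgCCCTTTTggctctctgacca
RPL37A (chr2:216498814-216498863, plus strand): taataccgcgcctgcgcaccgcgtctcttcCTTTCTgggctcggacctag
RPL24 (chr3:101686699-101686748, minus strand): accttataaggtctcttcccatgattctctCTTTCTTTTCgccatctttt
RPS3 (chr11:75399488-75399537, plus strand): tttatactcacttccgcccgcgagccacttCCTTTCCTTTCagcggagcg
RPL13A (chr19:49487578-49487627, plus strand): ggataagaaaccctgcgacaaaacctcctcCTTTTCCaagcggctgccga
RPL39 (chrX:119791611-119791660, minus strand): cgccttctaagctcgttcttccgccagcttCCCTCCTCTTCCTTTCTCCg
RPS6 (chr9:19380217-19380266, minus strand): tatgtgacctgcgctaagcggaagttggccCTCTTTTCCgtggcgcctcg
RPL3 (chr22:39319604-39319653, minus strand): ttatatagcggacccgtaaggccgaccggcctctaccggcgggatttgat
RPL27 (chr17:42998389-42998438, plus strand): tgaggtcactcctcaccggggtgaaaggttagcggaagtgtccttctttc
In RPL3 the C at the listed start is followed by 3 pyrimidines, fewer than the minimum of 4, and RPL27 has no C there, which says only that these letters are not at this position. The next windows set 3 single genes beside their paralogs.
RPL22 (chr1:6199576-6199625, minus strand): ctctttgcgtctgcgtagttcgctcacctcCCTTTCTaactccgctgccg
RPL22L1 (chr3:170870176-170870225, minus strand): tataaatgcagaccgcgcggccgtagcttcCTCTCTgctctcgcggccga
RPS27 (chr1:153990732-153990781, plus strand): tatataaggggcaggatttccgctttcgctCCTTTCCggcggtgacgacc
RPS27L (chr15:63157458-63157507, minus strand): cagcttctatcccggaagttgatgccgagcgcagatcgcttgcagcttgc
RPL26 (chr17:8383174-8383223, minus strand): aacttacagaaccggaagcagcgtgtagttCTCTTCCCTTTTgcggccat
RPL26L1 (chr5:172958850-172958899, plus strand): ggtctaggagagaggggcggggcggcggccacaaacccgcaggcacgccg
The RPL22 and RPL22L1 windows both held the run, whereas RPS27 and RPL26 held it and RPS27L and RPL26L1 did not.

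Expression was measured by amplicon sequencing with 1 short amplicon per gene, and values are in RPM, the reads of a gene scaled to a fixed total of reads per library. Libraries held 10017130 to 10707777 reads. A level reflects how well an amplicon works as well as how much mRNA is present, so levels of different genes are described and not compared as copies per cell. PVRL4 was at 5.99, 4.36 and 4.67 RPM with siRNA 1, at 3.39, 2.91 and 2.58 RPM with siRNA 2 and at 9.93, 7.86 and 11.6 RPM in control libraries, with no overlap between either siRNA and control. The 7 markers of SKBR3 (ERBB2, GRB7, STARD3, KRT8, KRT18, KRT19 and EPCAM) summed to 8815 to 11113 RPM per library. Leukocyte markers (3 genes) summed to at most 0.187 RPM, endothelial markers (2 genes) to at most 0.668 RPM and fibroblast markers (3 genes) to 3.53 to 6.35 RPM, nearly all of it COL1A1. Some libraries stood apart. The library siRNA 2 replicate 3 held the highest value of the 9 libraries for 34 of the 81 tested members (42.0%), against 12.5% of all tested genes. It held the lowest value for 7 of the 81 (8.64%), against 24.98% of all tested genes. Lowest values were most frequent in siRNA 1 replicate 1, with 24 of the 81 (29.6%, against 10.2% of all tested genes). Control replicate 1 held 21 of them (25.9%, against 10.6%).

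Amplicons of ribosomal protein genes filled much of the top of the RPM range. RPL19, of the large subunit, had the highest RPM of all 20812 genes, at 19651 RPM on average. It was followed among the members by RPL7 (rank 4, 7675 RPM) and RPL4 (rank 6, 7141 RPM), which lines the peptide exit tunnel. Members made up 5 of the 10, 17 of the 50 and 33 of the 100 genes with the highest RPM. These ranks are of amplicon reads. In all, 38 members averaged at least 1000 RPM, 27 lay between 100 and 1000 RPM, 11 between 10 and 100 RPM, 5 between 1 and 10 RPM and 3 under 1 RPM.

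The low end held single genes as well as paralogs. RPL17 and RPL31, both single 60S genes, averaged 1.145 and 1.34 RPM. RPSA, the 40S protein also known as the laminin receptor, averaged 5.46 RPM. The 40S gene RPS24 had 0.483, 0.775 and 0.467 RPM with siRNA 1, 0.898, 0.581 and 0.763 RPM with siRNA 2 and 0.477, 0.379 and 0.197 RPM in control libraries, which is 2 to 9 reads. The amplicons of these genes gave few reads in every group, and whether the mRNA or the amplicon sets that level was not tested. Genes averaging under 1 RPM were not tested for a difference, which left out RPS24, RPL34-AS1 (0 reads in all 9 libraries, where a count of 0 allows up to 0.280 to 0.299 RPM) and RPL10L (1 read in siRNA 2 replicate 3 only). The remaining 81 members were tested.

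**Figure D1:**
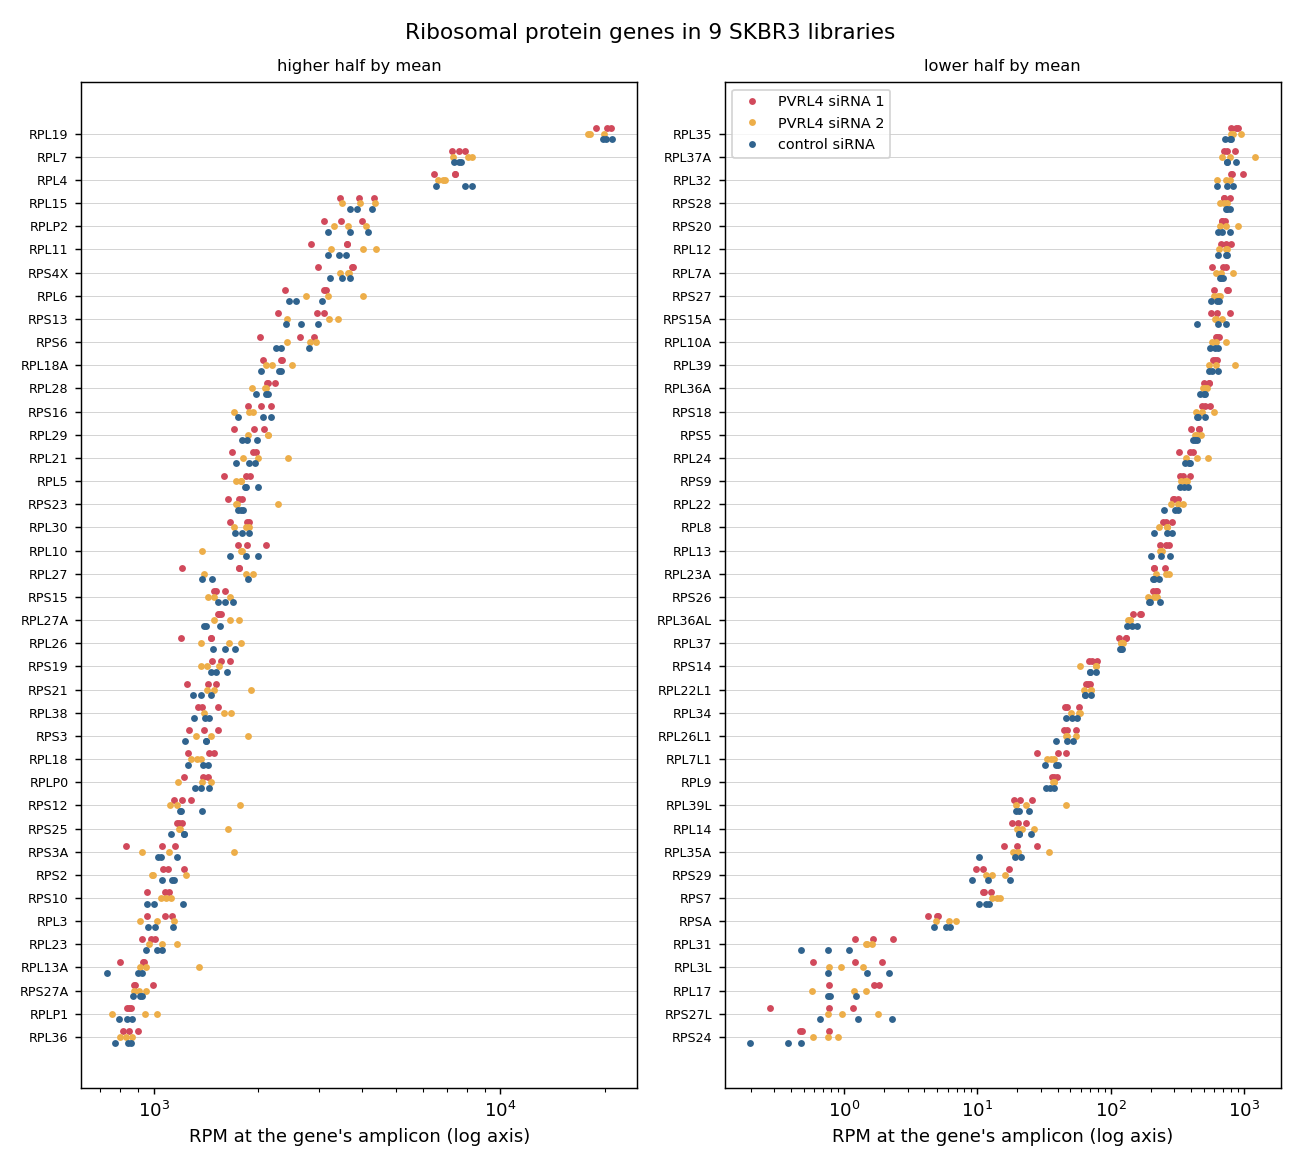
Level of the members in RPM on a log axis, 1 row per gene in order of mean, split into the higher and the lower ranks, with 1 point per library coloured by group; 80 of the 84 members are drawn, and RPL10L and RPL34-AS1, at or near 0, are among those not drawn. Points of the 3 groups overlap for most genes, and RPL19 lies highest at 19651 RPM on average.

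The share of reads held by the members overlapped between the groups. Their summed share was 11.4%, 12.6% and 12.9% with siRNA 1, 11.8%, 12.8% and 13.2% with siRNA 2 and 11.9%, 12.3% and 12.9% in control libraries. The means were 12.3% ± 0.790, 12.6% ± 0.734 and 12.4% ± 0.515 (SD, n = 3 each). Between libraries of the same number, 1 to 3 in turn, siRNA 1 minus control gave -0.473, 0.268 and -0.007 percentage points and siRNA 2 minus control -0.110, 0.491 and 0.275. For siRNA 2 minus siRNA 1 the differences were 0.363, 0.223 and 0.282 percentage points, positive in each of the 3 sets. The 60S members held 8.30% ± 0.458 with siRNA 1, 8.37% ± 0.438 with siRNA 2 and 8.33% ± 0.323 in control libraries. The 40S members held 4.005% ± 0.334 with siRNA 1, 4.22% ± 0.312 with siRNA 2 and 4.04% ± 0.192 in control libraries. Within each group, replicate 1 had the lowest share and replicate 3 the highest.

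**Figure D2:**
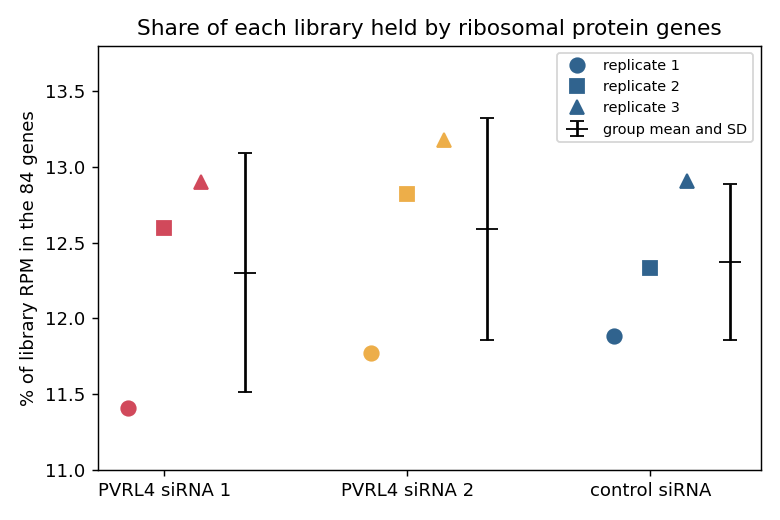
Share of each library held by the 84 members, in percent of library RPM, with 1 point per library and the group mean and SD (n = 3) as a cross with bars; the axis starts at 11%. The libraries lie between 11.4% and 13.2%, the groups overlap, and replicate 1 is the lowest point of each group.

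Against control, no member passed the threshold with either PVRL4 siRNA. With siRNA 1, limma called 0 of 81 members at an adjusted p under 0.05, where 0.851% of all tested genes were called. A single member, RPL31, had an unadjusted p under 0.05 there, as did 6.04% of all tested genes, and edgeR and DESeq2 called 0 members with 1 and 2 at an unadjusted p under 0.05, beside 6.32% and 5.49% of all tested genes. With siRNA 2, limma called 0 of 81 members, where 0.681% of all tested genes were called, with RPL13A and RPL31 at an unadjusted p under 0.05, beside 9.42% of all tested genes. edgeR and DESeq2 called 0 members there too, with 18 and 18 at an unadjusted p under 0.05, all of them higher. That is 22.2% of the members in each tool, where 10.1% of all tested genes had such a p in edgeR (4.68% higher) and 8.97% in DESeq2 (4.45% higher). These count tests leave out siRNA 2 replicate 1, whose member share was 11.8%, against 12.8% and 13.2% in the siRNA 2 libraries kept. Replicate 1 was kept in the other groups, where it also had the lowest share. The siRNA and the replicate number are therefore not balanced in these tests, and their parts in these counts cannot be told apart. The mean of both PVRL4 siRNAs against control called 0 of 81 members, where 0.152% of all tested genes were called, with RPL31 alone at an unadjusted p under 0.05, beside 6.05% of all tested genes. edgeR and DESeq2 called 0 members for that mean as well, with 3 and 6 at an unadjusted p under 0.05, beside 6.48% and 5.48% of all tested genes. The smallest adjusted p of a member was 0.519 with siRNA 1, 0.489 with siRNA 2 and 0.509 for the mean of both.

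The intervals, from the fit without the replicate number, show how large a difference these data leave room for. The 95% confidence interval of the change lay within 1.5-fold in either direction for 76 of 81 members with siRNA 1 and 72 of 81 with siRNA 2, and within 2-fold for 79 of 81 with each. The median half-width of the interval was 0.25 on the log2 scale. The median log2 change of the members was 0.02 with siRNA 1, beside 0.01 for all tested genes, and 0.05 with siRNA 2, beside -0.02 for all tested genes. With siRNA 1, 51 members had a positive and 30 a negative log2 change, and with siRNA 2 these were 58 and 23. Of all tested genes, 53.9% had a positive change with siRNA 1 and 45.4% with siRNA 2. Both comparisons share the control libraries.

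**Figure D3:**
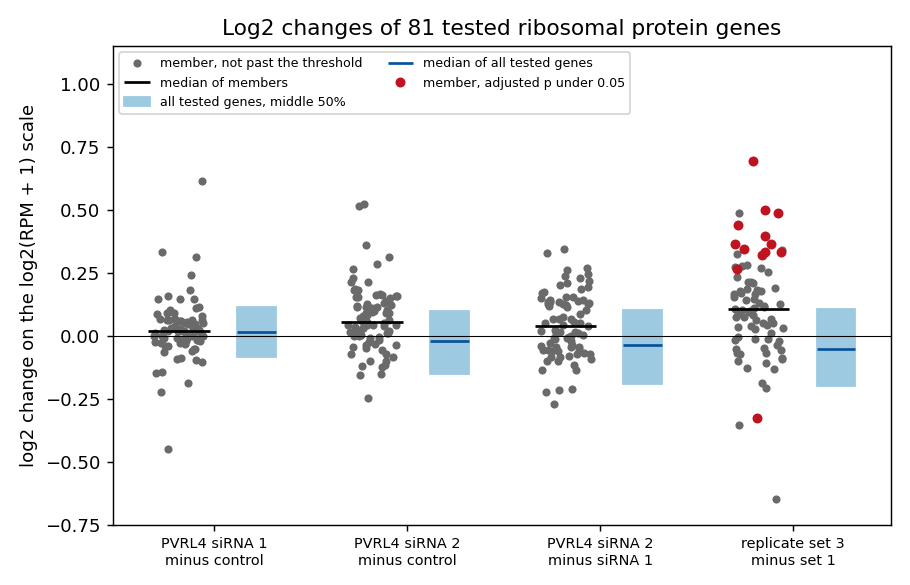
Log2 change of each of the 81 tested members on the log2(RPM + 1) scale in 4 comparisons (grey points, with members at an adjusted p under 0.05 in red and their median as a black line), beside the median and middle 50% of all tested genes in blue. No point is red in the 3 siRNA comparisons, and 13 are red for replicate set 3 minus set 1.

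Among 60S genes, the ones at the ends of the siRNA 1 comparison were RPL26, RPL32 and RPL35A. RPL26, which sits at the mouth of the exit tunnel, had 1199, 1460 and 1463 RPM with siRNA 1 and 1605, 1712 and 1484 RPM in control libraries. All 3 siRNA 1 libraries lay below all 3 control libraries, with a log2 difference of -0.22 ± 0.12 (SE) and a limma adjusted p of 0.946. It was the sole member with such a separation downward, where 5.59% of all tested genes had one. RPL35A, one of the genes mutated in Diamond-Blackfan anaemia, had 19.7, 28.0 and 15.8 RPM with siRNA 1, 18.7, 34.8 and 20.04 RPM with siRNA 2 and 10.3, 21.1 and 19.2 RPM in control libraries. The groups overlap, and the log2 differences from control of 0.33 ± 0.28 (SE) with siRNA 1 and 0.52 ± 0.28 (SE) with siRNA 2 did not pass. Without control replicate 1 these log2 differences were 0.03 and 0.22. RPL32 had 811, 984 and 803 RPM with siRNA 1 and 624, 828 and 752 RPM in control libraries, which overlap, with a log2 difference of 0.24.

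RPL35 and RPL31 stood higher in all siRNA 1 libraries than in all control libraries, the 2 members of which this was true, where 6.4% of all tested genes showed it. RPL35, near the tunnel exit, had 805, 868 and 902 RPM with siRNA 1 and 724, 802 and 779.9 RPM in control libraries. The log2 difference of 0.16 had an unadjusted p of 0.126. RPL31 had 24, 17 and 13 reads with siRNA 1, 15, 15 and 17 reads with siRNA 2 and 8, 5 and 11 reads in control libraries. It was the member with the largest log2 difference with siRNA 1 (0.61, limma adjusted p = 0.519) and with siRNA 2 (0.52, limma adjusted p = 0.489), at a level where counting error is large.

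With siRNA 2, the 60S genes RPL4, RPL10 and RPL19 were at the lower end. RPL4 had 6596, 6821 and 6907 RPM with siRNA 2 and 6516, 8270 and 7902 RPM in control libraries, a log2 difference of -0.15. RPL10, which joins the large subunit in the last steps of its assembly, had 1803, 1785 and 1379 RPM with siRNA 2 and 1656, 2003 and 1843 RPM in control libraries, a log2 difference of -0.15. RPL19 had 18099, 19946 and 17949 RPM with siRNA 2 and 20169, 19803 and 20977 RPM in control libraries, a log2 difference of -0.12. All of these groups overlap, and none passed the test. With single libraries left out, the log2 difference of RPL4 lay between -0.26 and -0.08 and that of RPL10 between -0.23 and -0.03, the last without siRNA 2 replicate 3. RPL13A, which in human myeloid cells also forms part of an interferon-gamma-activated inhibitor of translation, was at the upper end with 912, 949 and 1356 RPM with siRNA 2 and 732, 926 and 903 RPM in control libraries. Its log2 difference was 0.31 ± 0.14 (SE) with a limma adjusted p of 0.526, and the log2 difference was 0.13 without siRNA 2 replicate 3.

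RPL5 and RPL11, the pair that binds MDM2, are given side by side. RPL5 had 1732, 1785 and 1787 RPM with siRNA 2 and 1837, 1999 and 1846 RPM in control libraries. It was the single member whose siRNA 2 libraries all lay below the control libraries, where 8.95% of all tested genes did so, with a log2 difference of -0.10 and an unadjusted p of 0.317. RPL11 had 3252, 4006 and 4368 RPM with siRNA 2 and 3421, 3187 and 3590 RPM in control libraries, which overlap, with a log2 difference of 0.18. With siRNA 1 the log2 differences from control were -0.09 for RPL5 and -0.03 for RPL11.

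The stalk of the large subunit, which recruits elongation factors, is built from RPLP0, RPLP1 and RPLP2. RPLP0 averaged 1350 ± 111 RPM with siRNA 1, 1339 ± 145 RPM with siRNA 2 and 1377 ± 66.3 RPM in control libraries (SD, n = 3 each). RPLP1 averaged 849.8 ± 9.36 RPM with siRNA 1, 908 ± 135 RPM with siRNA 2 and 834 ± 37.7 RPM in control libraries. RPLP2 averaged 3520 ± 450 RPM with siRNA 1, 3679 ± 386 RPM with siRNA 2 and 3674 ± 475 RPM in control libraries. The log2 differences of the stalk genes from control lay between -0.06 and 0.11, inside the spread between libraries.

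The 40S members had a median log2 difference from control of 0.01 with siRNA 1 and 0.05 with siRNA 2, next to 0.03 and 0.05 for the 60S members. RPS3A was toward the lower end with siRNA 1, at a log2 difference of -0.10, and RPS27 at the upper end at 0.18. RPS3A had 833, 1059 and 1154 RPM with siRNA 1, 927, 1109 and 1703 RPM with siRNA 2 and 1052, 1029 and 1169 RPM in control libraries. RPS27, a zinc-finger protein, had 745, 757 and 599 RPM with siRNA 1 and 569, 629 and 648 RPM in control libraries. All of these groups overlap. RPS6, the substrate of the S6 kinases, had 2426, 2941 and 2829 RPM with siRNA 2 and 2334, 2254 and 2805 RPM in control libraries, a log2 difference of 0.15. RPS4X, encoded on the X chromosome, differed from control by 0.00 with siRNA 1 and 0.04 with siRNA 2. RPS7 had 12.9, 14.1 and 14.7 RPM with siRNA 2 and 12.2, 11.6 and 10.3 RPM in control libraries. With RPL31 it was 1 of the 2 members whose siRNA 2 libraries all lay above the control libraries, where 4.99% of all tested genes did so, with a log2 difference of 0.27 and an unadjusted p of 0.0816.

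Between the siRNAs, limma called 0 of 81 members for siRNA 2 minus siRNA 1, where 3.05% of all tested genes were called. At an unadjusted p under 0.05 there were 2 members by limma, RPL32 and RPL36AL, where 15.1% of all tested genes lay. Both of these were lower with siRNA 2. There were 17 by edgeR and 19 by DESeq2, all of them higher with siRNA 2. The count tests again leave out siRNA 2 replicate 1, so siRNA and replicate number are not balanced in them. These are 21.0% and 23.5% of the members, where 15.4% of all tested genes had such a p in edgeR (7.38% higher) and 13.83% in DESeq2 (7.19% higher). The smallest adjusted p was 0.318 by limma and 0.0637 by DESeq2. RPL32 had 737, 785 and 629 RPM with siRNA 2 and 811, 984 and 803 RPM with siRNA 1, a log2 difference of -0.27 with an interval of -0.54 to 0.00. RPL36AL had 139, 139 and 134 RPM with siRNA 2 and 169, 166 and 146 RPM with siRNA 1, a log2 difference of -0.22. With RPL28 these were the 3 members whose siRNA 2 libraries all lay below the siRNA 1 libraries, where 12.6% of all tested genes did so. RPS7 was the sole member in the other direction, where 7.04% of all tested genes were. The median log2 change of the members was 0.04, beside -0.04 for all tested genes.

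The paralogs gave fewer amplicon reads than their single partners in all 8 pairs. RPL36A and RPL36AL averaged 513 and 147 RPM over the 9 libraries, RPL22 and RPL22L1 304 and 67.6 RPM, RPL26 and RPL26L1 1525 and 48.1 RPM, and RPL7 and RPL7L1 7675 and 36.9 RPM. RPL3L, known from striated muscle, averaged 1.25 RPM next to 1040 RPM for RPL3, and RPS27L, a p53 target, 1.11 RPM next to 650.1 RPM for RPS27. RPL10L, known from the testis, had 1 read in all, next to 1800.1 RPM for RPL10. RPL39L, also known from the testis, had 18.7, 25.7 and 21.0 RPM with siRNA 1, 19.6, 23.3 and 46.6 RPM with siRNA 2 and 19.4, 24.3 and 20.7 RPM in control libraries. The RPL39L difference of siRNA 2 from control, 0.36 on the log2 scale, came from replicate 3: without that library it was -0.0027. RPL39 in the same library was also the highest of the 9, at 861 RPM. Close paralogs can share reads, and these 8 pairs are uncertain to that extent.

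The spread of the members between libraries was set beside that of all genes above the same minimum level, without matching levels. The SD of log2(RPM + 1) within groups had a median of 0.138 over the 76 members averaging at least 10 RPM, beside 0.161 for all 7934 such genes. At 100 RPM and above the medians were 0.129 for 65 members and 0.131 for 2017 genes. Of these, 38 members and 117 genes averaged at least 1000 RPM, so the members lie higher in level than the genes beside them. Among the steadiest members at 10 RPM and above were RPL28 (0.0592) and RPL37 (0.0598), and the most variable were RPL35A (0.468), RPL39L (0.402) and RPS29 (0.367).

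Part of that spread followed the replicate number. The labels number the libraries 1 to 3 in each group and do not say what the number stands for. Libraries of the same number deviated together across groups, so set 3 (the 3 libraries numbered 3) was compared with set 1 (the 3 numbered 1) with the siRNA group kept in the fit. This comparison was chosen after seeing the data. Limma called 13 of 81 members, 12 higher and 1 lower in set 3, where 8.93% of all tested genes were called (3.75% higher and 5.18% lower). The members' median log2 change was 0.11, beside -0.05 for all tested genes. In each of the 3 groups, replicate 3 lay above replicate 1 for 35 of 81 members (43.2%), against 17.3% of all tested genes.

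The 12 higher members came from both subunits and included RPL27, RPL37A, RPL6, RPL24, RPL13A, RPL3 and RPL39 of the 60S, and RPS29, RPS3A, RPS3 and RPS6 of the 40S. The changes lay between 0.27 for RPL3 and 0.69 for RPS29. RPL27 had 1769, 1938 and 1874 RPM in set 3 (siRNA 1, siRNA 2 and control) and 1207, 1402 and 1383 RPM in set 1, a log2 difference of 0.49 ± 0.089 (SE) with a limma adjusted p of 0.00498. RPS29, a zinc-finger protein of the 40S head, had 17.2, 16.1 and 17.4 RPM in set 3 and 9.76, 11.6 and 9.07 RPM in set 1, with a limma adjusted p of 0.00644. Neither gene's sets overlap, and these were the 2 members that kept an adjusted p under 0.05 with each single library left out.

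RPS3A had 1154, 1703 and 1169 RPM in set 3 and 833, 927 and 1052 RPM in set 1, a log2 difference of 0.50 with a limma adjusted p of 0.0128. RPL37A had 850.3, 1215 and 871 RPM in set 3 and 706, 679 and 750.2 RPM in set 1, and RPL6 had 3132, 4007 and 3068 RPM in set 3 and 2398, 2751 and 2569 RPM in set 1. In these 3 genes siRNA 2 replicate 3 was the highest library and all of set 3 lay above all of set 1. RPL26L1 was the member called lower, with 44.4, 46.4 and 38.6 RPM in set 3 and 55.2, 54.8 and 52.5 RPM in set 1, a log2 difference of -0.33 with a limma adjusted p of 0.0410. Under median-of-ratios and TMM scaling its log2 difference was -0.28 and 0 members were called lower. The number called higher depended on single libraries: it was 2 without siRNA 2 replicate 1, 5 without siRNA 1 replicate 1, and 6 without replicate 3 of siRNA 1, of siRNA 2 or of control. edgeR, run without siRNA 2 replicate 1, called 2 members higher and 0 lower. At an unadjusted p under 0.05 limma had 29 of 81 members, beside 26% of all tested genes, and edgeR had 26, beside 18.8% of all tested genes.

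**Figure D4:**
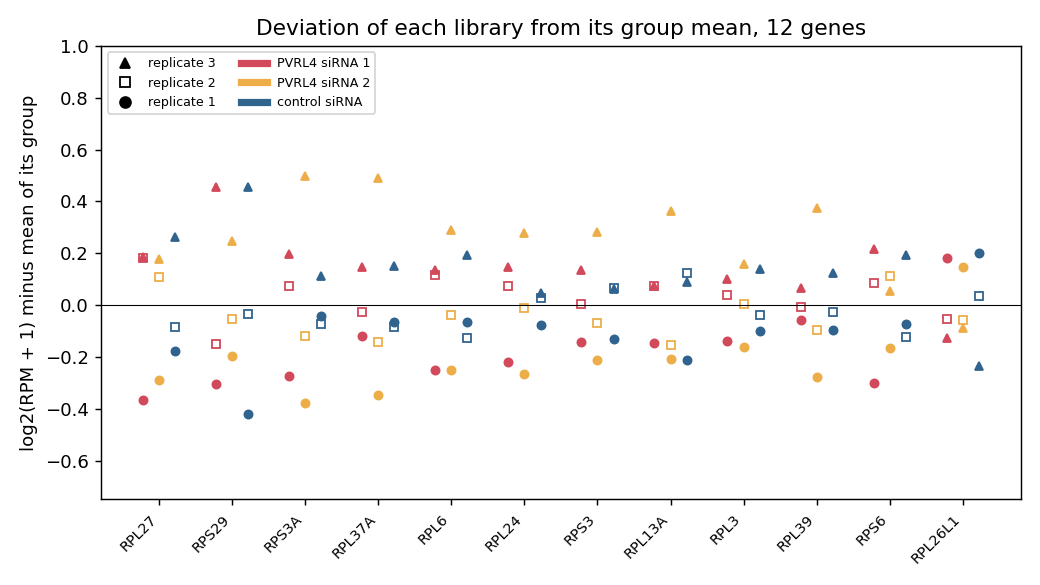
Deviation of each library from the mean of its group on the log2(RPM + 1) scale for 12 of the 13 members called between replicate set 3 and set 1, with the replicate number as the symbol and the group as the colour. In each group replicate 3 lies above replicate 1 for the higher members drawn and below it for RPL26L1.

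Read against the windows shown above, the members called higher in set 3 were not limited to those with a TOP run at the listed start. A member without a run lacks these letters at that position only. Its mRNA may still begin with the motif at another start, and the RPL27 window holds pyrimidines further downstream. Among tested members with an entry, 7 of 45 with a run were called higher (15.6%) and 4 of 20 without one. The median log2 difference between the sets was 0.15 for members with a run and 0.02 for members without. For other tested genes with an entry it was -0.03 in the 549 with a run and -0.06 in the 7527 without. With siRNA 2 the median difference from control was 0.09 for members with a run and 0.00 for members without, and with siRNA 1 it was 0.02 for both. The difference between the classes was not tested.

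Ribosomal genes outside the symbol rule also showed overlapping groups. GNB2L1 (RACK1), a 40S scaffold protein, had 4032, 4117 and 4505 RPM with siRNA 1, 3618, 4347 and 4285 RPM with siRNA 2 and 4183, 4421 and 4490.1 RPM in control libraries. FAU, whose product is cleaved into a 40S protein, lay between 277 and 338 RPM over the 9 libraries. The pseudogene RPL13AP20 had 239, 279, 273 RPM with siRNA 1, 279, 274 and 461 RPM with siRNA 2 and 242, 298 and 289.7 RPM in control libraries; its highest library, siRNA 2 replicate 3, is also that of RPL13A, and whether the amplicons share reads was not tested. RPS19BP1, a binding protein of RPS19 rather than a pseudogene, falls under the symbol ending in P and a number and was left out.

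The related gene lists gave few calls with the siRNAs. None of the 22 tested translation factors and other genes known for TOP mRNAs, of the 28 initiation factors, of the 65 genes of RNA polymerase I and ribosomal RNA processing, or of the 10 TOP-type host RNAs of small nucleolar RNAs was called by limma with siRNA 1 or siRNA 2 against control or between the siRNAs. Of all tested genes, limma called 0.851%, 0.681% and 3.05% in these comparisons. At an unadjusted p under 0.05 limma had 0 TOP translation genes in each of these comparisons, 2 to 4 initiation factors, 1 to 4 polymerase I genes and 0 to 1 host RNAs. The shares of all tested genes at such a p were 6.04%, 9.42% and 15.1%. edgeR called none of these listed genes. DESeq2 called 2 initiation factors higher for siRNA 2 minus siRNA 1, where it called 338 of all 11158 tested genes. With the replicate number in the fit, initiation factors gave 1 lower call with siRNA 2 against control, and 2 higher and 1 lower for siRNA 2 minus siRNA 1. The polymerase I list gave 3 higher and 1 lower for siRNA 2 minus siRNA 1. That fit called 380 of all 11158 tested genes with siRNA 2 against control and 1041 for siRNA 2 minus siRNA 1. Of 11 interferon-induced genes, 10 were higher with siRNA 1 than in control libraries (11 with the replicate number in the fit or in edgeR). With siRNA 2 limma called 0 of them against control, none at an unadjusted p under 0.05, and edgeR and DESeq2 called 0, with 2 and 4 at an unadjusted p under 0.05.

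Of 73 mitochondrial ribosomal protein genes, MRPL11, of the large mitochondrial subunit, was the sole one called with siRNA 2 against control. There 0.681% of all tested genes were called. MRPL11 averaged 50.2 ± 4.79 RPM with siRNA 2, 76.6 ± 3.25 RPM with siRNA 1 and 74.4 ± 2.54 RPM in control libraries (SD, n = 3 each). The log2 change was -0.56 against control (limma adjusted p = 0.0264) and -0.60 against siRNA 1 (limma adjusted p = 0.00591). MRPL47 was higher with siRNA 2, at 127 ± 9.49 RPM, than with siRNA 1, at 89.2 ± 1.68 RPM, with a limma adjusted p of 0.0112. With the replicate number in the fit, 4 mitochondrial genes were called lower with siRNA 2 against control and 1 lower with siRNA 1 against control. For siRNA 2 minus siRNA 1, 1 was called higher and 5 lower. Of all 11158 tested genes, that fit called 380, 206 and 1041 in these comparisons.

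LAMTOR5 is a subunit of the Ragulator complex that anchors mTORC1 at the lysosome. It was called with siRNA 2 against control among 24 tested genes of that pathway, where 0.681% of all tested genes were called. It averaged 51.5 ± 8.40 RPM with siRNA 2, 88.8 ± 14.5 RPM with siRNA 1 and 85.3 ± 3.07 RPM in control libraries, with a limma adjusted p of 0.0275 against control. For siRNA 2 minus siRNA 1, LAMTOR5 was also called lower, at a log2 change of -0.77 (limma adjusted p = 0.00753). There 3.05% of all tested genes were called. On the pathway list, edgeR gave 1 higher call in that comparison, and DESeq2 gave 2 higher and 1 lower. With the replicate number in the fit the pathway list gave 2 higher and 2 lower calls for siRNA 2 minus siRNA 1, where 1041 of all 11158 tested genes were called. MDM2 was the one call with siRNA 2 among 17 genes of ribosome stress and the p53 response. It averaged 98.0 ± 7.32 RPM with siRNA 2, 129.6 ± 5.14 RPM with siRNA 1 and 141 ± 12.7 RPM in control libraries. The limma adjusted p was 0.0343 against control and 0.0487 against siRNA 1. Against siRNA 1, neither edgeR nor DESeq2 called it. Each of these calls with siRNA 2 against control was lost when 1 or more of the libraries were left out singly, with adjusted p up to 0.134 for MRPL11, 0.125 for LAMTOR5 and 0.169 for MDM2, and edgeR on 8 libraries made none of them. DESeq2 on the same 8 libraries called all 3 lower, with adjusted p of 0.0384 for MRPL11, 0.0369 for LAMTOR5 and 0.0393 for MDM2. With single libraries left out, the log2 change from control stayed between -0.64 and -0.52 for MRPL11, -0.81 and -0.59 for LAMTOR5, and -0.57 and -0.45 for MDM2.

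Between replicate sets, the counts of the lists are read beside the 3.75% of all tested genes called higher and the 5.18% called lower in set 3. Of the 22 TOP translation genes, 4 were called higher in set 3 and 0 lower: TPT1 at a log2 change of 0.40, EIF3L at 0.35, EIF4B at 0.45 and the elongation factor EEF1A1 at 0.32. The host RNA GAS5 was higher by 0.54. Of the 65 genes of RNA polymerase I and ribosomal RNA processing, 0 were called higher and 8 lower, led by UBTF, the polymerase I upstream binding factor, at -0.53, and TCOF1 at -0.51, then UTP20 at -0.46 and NOP56 at -0.34. Initiation factors gave 1 higher, the helicase EIF4A2 at 0.63, and 2 lower, EIF4G2 at -0.28 and EIF3M at -0.31. Mitochondrial ribosomal protein genes gave 2 higher and 4 lower, with MRPL24 at 0.41, MRPS18B at 0.36, MRPS18C at -0.43 and MRPL20 at -0.27. The mTORC1 list gave DEPTOR at 0.56 and LAMTOR2 at 0.37 as higher and LARP1 at -0.37 as lower, and the stress list gave CDKN1A at -0.53. Median changes of the lists in set 3 were 0.11 for the TOP translation genes and -0.12 for the polymerase I list, beside -0.05 for all tested genes. Under median-of-ratios and under TMM scaling the polymerase I median was -0.07 and that of the TOP translation genes 0.16. Scaling moves all genes of a library together, so these medians are not to be set beside the unscaled -0.05. These scalings left 5 polymerase I genes called lower and 5 TOP translation genes called higher, and 0 initiation factors called lower. edgeR without siRNA 2 replicate 1 called 1 polymerase I gene lower and 0 TOP translation genes. Of the genes named here, EIF4A2, UBTF, GAS5 and DEPTOR kept an adjusted p under 0.05 with each single library left out, and the others did not.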

How the data were processed

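Values were deposited by the authors as RPM, an amplicon's reads scaled to a fixed total per library, for 9 Ion AmpliSeq libraries made from 100 ng of total RNA each, per the labels' protocols. The genome build was hg 19, per the submitters' processing notes; neither aligner nor counting tool was stated in the sources used here. RPM removes differences in total RNA per cell. RPM steps gave whole reads, with 100% of the values of each library on whole multiples of 1 read within 0.1 read. In siRNA 2 replicate 1 a read is worth 0.0998 RPM, close to 0.1 RPM, so that low values alone do not settle it. Above 20 reads, 100% of its values were multiples of that step and 23.0% were multiples of exactly 0.1 RPM. That library was still left out of edgeR and DESeq2, which used the other 8. Floors (3 reads) cover counting error only, since reads carry no molecular identifiers. The confidence intervals and SEs of the log2 changes come from the limma fit and rest on the spread between libraries. Library pairs of a group differed by more than counting noise (chi-square per degree of freedom 8.95 to 23.7).

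Tests were two-sided, by limma 3.58.1 (R 4.3.3) with a trended prior on log2(RPM + 1) over the 11158 genes averaging 1 RPM or more, Benjamini-Hochberg adjusted over all of them, threshold 0.05; this scale understates the change of low genes. All 3 groups shared 1 estimate of the spread. Alternatives were edgeR 4.0.16, DESeq2 1.42.0, pseudocounts of 0.1 and 5, no filter, a filter of 5 RPM, median-of-ratios and TMM scaling, a replicate block, only the groups compared, and each library left out. The limma and edgeR steps were tested on simulated data. The labels do not say whether replicates are separate cultures, and the spread behind each p-value may be technical; 3 against 3 libraries cannot give an exact permutation p below 0.1.

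The titles number the replicates in each group and do not say that libraries of the same number are paired. The main fit leaves the number out, and the replicate block takes it in. Over all tested genes, deviations from group means correlated at 0.252 to 0.417 in the 9 same-number pairs and at -0.340 to -0.0275 in the 18 others. Deviations cancel out within a group, so positive values in same-number pairs go with negative values in the others. Over the members alone the ranges were 0.184 to 0.583 and -0.504 to 0.247, which overlap.

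Members, lists and named genes were chosen with earlier results of these data known. Named were every member past the threshold; the 3 highest and 3 lowest changes of each comparison at 10 RPM or more; the paralog pairs, stalk genes, RPL5, RPL11, RPS6, RPSA and RPS4X; members at the ends of the level and spread ranges; those not tested; and up to 4 called genes of each list. RPL28, RPL35, RPS7 and RPL31, the pseudogene and the ribosomal genes outside the rule were added after their values were seen. Promoter windows are RefSeq's. Some genes that the naming rule takes are not reported here.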

Additional observations from a re-analysis of the deposited data

How the results depend on the processing

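No member was called with either PVRL4 siRNA, between the siRNAs or for their mean under any of the alternatives, the replicate block included. The block left 0 members called in these comparisons, with smallest limma adjusted p of 0.275 for siRNA 1, 0.0940 for siRNA 2, 0.0668 between the siRNAs and 0.214 for the mean of both. At an unadjusted p under 0.05 it had 3, 8, 10 and 5 members, beside 10.7%, 16.4%, 23.6% and 11.05% of all tested genes. All 8 members with siRNA 2 were higher (9.88% of the members), where 5.70% of all tested genes were higher at such a p. Over all tested genes it gave 206, 380, 1041 and 124 calls in these comparisons, against 95, 76, 340 and 17 without it. Among the interferon-induced genes it gave 10 calls for the mean of both, against 8 without it. The members' median log2 change with siRNA 2 against control was 0.14 in edgeR and 0.15 in DESeq2. For siRNA 2 minus siRNA 1 it was 0.13 and 0.14. Both tools ran without siRNA 2 replicate 1, the library with the lowest member share of its group, so replicate numbers were not balanced. Leaving out each library in turn moved that median over 0.02 to 0.08 with siRNA 2 and over -0.01 to 0.06 between the siRNAs, and over -0.01 to 0.07 with siRNA 1. Across the same omissions, the log2 difference of RPS3A with siRNA 1 ran from -0.20 to 0.0321, that of RPL39L with siRNA 2 from -0.0027 to 0.60, and that of RPL39L between the siRNAs from -0.0187 to 0.59, each with a change of sign.

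For set 3 minus set 1, the 12 higher and 1 lower calls became 2 and 0 with no filter, 2 and 0 in edgeR, 16 and 0 with median-of-ratios scaling and 17 and 0 with TMM scaling. Leaving out single libraries gave 2 to 13 higher and 0 to 1 lower. The cause was not tested. Depth limits RPL17, RPL31, RPL3L, RPS27L and the members not tested, all at low read counts in every library.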
